A study of Arabidopsis thaliana with 8 samples.

Results

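Abundant transcripts whose level differed little between Arabidopsis thaliana plants at normal and at high CO2 are described here. They are the probes with a mean intensity of 0.68 or more over 8 expression arrays, a ratio of the high-CO2 mean to the normal-CO2 mean between 0.87 and 1.15, and no array at or above 99.99. Of 3439 probes on the array, 132 (3.84%) met all 3 conditions and are called the members below. They were selected on the deposited intensities of these 8 arrays, so that the levels and group differences of the members are given as description and support nothing. At the same level and below 99.99 on every array stood 782 probes. The members were 16.9% of these, while 305 (39.0%) had a ratio above the window and 345 (44.1%) a ratio below it.

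All plants were wild type of ecotype Columbia 0, a standard laboratory accession. The normal-CO2 group (4 arrays, titled day 0) was grown at normal CO2, and the high-CO2 group (4 arrays, day 10) spent its last 10 days in air with 1% CO2 by volume. No organ, age or separate planting is named in the labels, so that plant age cannot be told apart from CO2. For the same reason p-values reflect the spread among these arrays alone, and that spread may be technical. In bulk RNA, fewer cells of a type cannot be told apart from less RNA per cell. Sums of intensity per array ran from 3295 to 3498, and 133 to 253 probes per array were listed at 0.

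In a leaf, nuclear genes supply many subunits of the photosystems and most enzymes of the Calvin cycle, which fixes CO2 into sugar. They also supply most of the machinery that builds pigments and cofactors in the plastid. High CO2 favours carboxylation by Rubisco over oxygenation and so suppresses photorespiration. An abundant transcript can keep its level under such a shift even when partners in the same pathway do not, which is why the members are set beside other genes of the same pathways below.

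Gene names come from GEO's annotation of the array, updated through RefSeq gene identifiers. It assigned 19 of the 132 members to 1 gene, 28 to several genes and 85 to none in the table used here. Over all 3439 probes these numbers were 692, 870 and 1877, so that 14.4% of members and 20.1% of all probes carried 1 gene name. Members assigned to several genes or to none are given by probe number. None of the listed markers of leaf mesophyll, root, guard cell and pollen was measured by a probe with 1 gene, so that the tissue could not be checked.

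The members were found in each class of brightness of the abundant probes, but only 1 of them, probe 4141, had a mean above 11.0. The next member, probe 3185, ranked 31 among all probes by its mean. Their mean intensity over the 8 arrays ran from 0.682 to 83.5, with a median of 1.38 and quartiles of 0.840 and 2.69. Abundant probes with a ratio above the window had a median of 1.48, and those with a ratio below it 1.19. When the 782 abundant probes were cut into 4 equal classes of brightness, the members made up 39 of 196 in the dimmest class (19.9%), 22 of 195 in the second (11.3%), 35 of 195 in the third (17.9%) and 36 of 196 in the brightest (18.4%). No member was listed at 0 on any array, and neither was any abundant probe above or below the window.

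**Figure D1:**
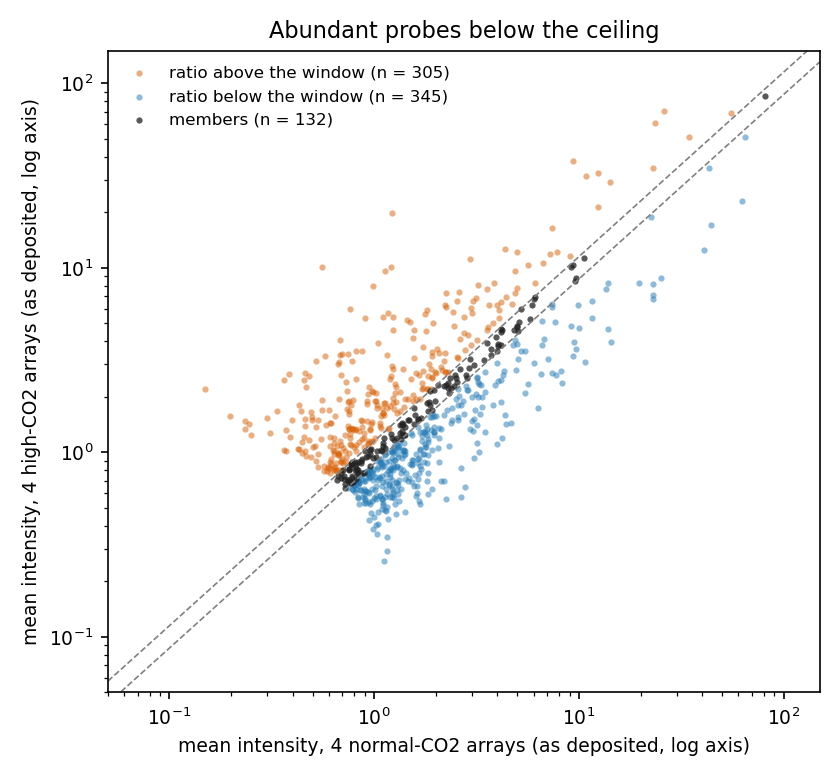
Mean intensity as deposited at high CO2 (vertical, log axis) against normal CO2 (horizontal, log axis) for the 782 abundant probes below the ceiling, 1 point a probe. The dashed lines are the limits of the ratio window, 0.87 and 1.15, and the 132 members lie between them. Their levels ran from 0.682 to 11.0, with probe 4141 alone at 83.5.

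Summed over the 132 members, the intensity averaged 370.2 ± 1.59 (SD, n = 4) under normal CO2, and under high CO2 it averaged 376 ± 8.16 (SD, n = 4). This was 11.1% ± 0.0606 (SD, n = 4) and 11.0% ± 0.160 (SD, n = 4) of all signal on the array. The sum was nearly the same on the 4 normal-CO2 arrays (368 to 372) and spread more at high CO2 (367 to 386). Over the same arrays the abundant probes above the window went from 19.2% ± 0.577 (SD, n = 4) to 38.1% ± 1.11 (SD, n = 4) of the signal, and those below it from 35.4% ± 0.657 (SD, n = 4) to 18.7% ± 0.242 (SD, n = 4), as their selection by ratio fixes.

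One member carried a large part of this sum. Probe 4141, assigned to no gene in the table used here, gave 84.2, 82.3, 80.2 and 78.5 at normal CO2, and at high CO2 it gave 89.7, 94.6, 75.1 and 83.1. It took 22.0% ± 0.604 (SD, n = 4) of the members' signal under normal CO2 and 22.8% ± 2.59 (SD, n = 4) under high CO2, and it ranked 3 to 6 among all probes of each array. The high-CO2 arrays lay on both sides of the normal-CO2 arrays. Without it the members summed to 289 ± 1.66 (SD, n = 4) and 290 ± 14.9 (SD, n = 4). Next in brightness was probe 3185, also unnamed, at 10.6 ± 0.705 (SD, n = 4) and 11.4 ± 0.704 (SD, n = 4), far below probe 4141. Probe 3203 followed, assigned to several genes, with 9.64, 9.51, 9.26 and 8.87 at normal CO2 and 10.2, 10.0, 10.9 and 10.0 at high CO2. Every high-CO2 value of probe 3203 lay above every normal-CO2 value, although the ratio of the means was only 1.11.

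Among the members with 1 gene name, PSAN and PRK fell in the listed families of photosynthesis. PSAN, a small nuclear-encoded subunit of photosystem I on the lumen side of the thylakoid membrane, read 5.49, 4.83, 4.73 and 4.90 at normal CO2 and 5.32, 4.30, 4.29 and 5.51 at high CO2. The groups overlapped fully, with means of 4.99 ± 0.342 (SD, n = 4) and 4.86 ± 0.653 (SD, n = 4) and a ratio of 0.973. No other gene whose symbol begins with PSA was measured by a probe with 1 gene.

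Photosystem II, which splits water at the start of the electron transport chain, had 3 such genes, none of them a member. Of these, 1 was lower and none was higher by the fit across all probes (limma, Benjamini-Hochberg adjusted p under 0.05), where 43.2% of 3157 probes were called. PSB27, an assembly and repair factor, fell from 4.32 ± 0.408 (SD, n = 4) to 2.76 ± 0.207 (SD, n = 4), and its log2 change in the fit was -0.81 (SE 0.11; limma, adjusted p = 0.00014). PSBW, a small subunit, read 19.2, 34.1, 19.8 and 18.6 at normal CO2 and 32.5, 36.5, 36.7 and 33.6 at high CO2. Its 3 lower normal-CO2 values lay apart from the high-CO2 values while normal-CO2 array 2 lay among them, and the log2 change of 0.35 missed the threshold (limma, adjusted p = 0.26) but was 0.69 without that array (limma, adjusted p = 0.00095). On the values as deposited it was 0.65 (limma, adjusted p = 0.011). PSBY, another small subunit, went from 1.40 ± 0.0758 (SD, n = 4) to 1.75 ± 0.303 (SD, n = 4) and missed the threshold (limma, adjusted p = 0.33).

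PRK, phosphoribulokinase, makes the CO2 acceptor of the Calvin cycle. It read 1.54, 1.81, 2.09 and 2.07 at normal CO2 and 2.25, 2.38, 2.08 and 1.90 at high CO2, means of 1.88 ± 0.260 (SD, n = 4) and 2.15 ± 0.209 (SD, n = 4). Its ratio of 1.147 was the highest among the members. The groups overlapped, since high-CO2 arrays 3 and 4 lay below normal-CO2 array 3, and the log2 change after quantile normalization was 0.03 with a 95% interval from -0.29 to 0.35. The other Calvin cycle gene measured was SBPASE, sedoheptulose-bisphosphatase, which acts before PRK in regenerating that acceptor. SBPASE read 0.896, 0.918, 0.705 and 0.830 at normal CO2 and 0.401, 0.542, 0.635 and 0.718 at high CO2. Its lowest normal-CO2 value lay just below its highest high-CO2 value, and the fit called it lower at a log2 change of -0.56 (SE 0.16; limma, adjusted p = 0.016). With the median change over all probes set to 0 the call was lost (limma, adjusted p = 0.059). Whether PRK and SBPASE differ from each other in their change was not tested.

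No probe with 1 gene under the listed tetrapyrrole symbols was a member. Members assigned to several genes or to none could not be searched in this way. The list of tetrapyrrole genes found 3 probes, 1 called higher and 1 lower. HEMA3, a glutamyl-tRNA reductase at the entry of the pathway, rose from 0.760 ± 0.146 (SD, n = 4) to 1.12 ± 0.115 (SD, n = 4) (limma, adjusted p = 0.020). CHLM, a methyltransferase of the chlorophyll branch, went from 0.407 ± 0.0571 (SD, n = 4) to 0.245 ± 0.0766 (SD, n = 4) and missed the threshold (limma, adjusted p = 0.061), but passed it on the values as deposited (limma, adjusted p = 0.029). The third, CHL, is a chloroplast lipocalin that the list caught by the letters of its symbol, and it fell from 0.172 ± 0.0530 (SD, n = 4) to 0.0729 ± 0.0410 (SD, n = 4) (limma, adjusted p = 0.035). The call of CHL was lost with the array pairs as a random block (limma, adjusted p = 0.11), with a pseudocount added to every value (log2 change -0.87, adjusted p = 0.060) and with the median change set to 0 (0.056). It was also lost without normal-CO2 array 1 (0.063), 3 (0.11) or 4 (0.083) or high-CO2 array 1 (0.073) or 4 (0.071). HEMA3 missed the threshold with that block (limma, adjusted p = 0.054) and without high-CO2 array 2 (0.055), and CHLM passed it without high-CO2 array 1 (0.038) or 2 (0.023). Light-harvesting, photorespiration, plastid ribosome and housekeeping genes were not found under the listed symbols among the probes with 1 gene.

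Other members with a known role came from cofactor synthesis, rhythm, chromatin and membranes. THIC, the plastid enzyme that makes the pyrimidine part of thiamin, was the dimmest named member, with 0.445, 0.760, 0.786 and 0.901 at normal CO2 and 0.454, 0.587, 0.915 and 0.745 at high CO2. Its lowest value in each group was that of array 1, and it had the highest coefficient of variation over the 8 arrays among the members with 1 gene name, 26.4%. CCL (CCR-like), a gene under circadian control with a short-lived transcript, read 4.62, 4.73, 6.93 and 6.79 at normal CO2 and 4.07, 3.61, 6.40 and 7.16 at high CO2. Arrays 1 and 2 were low and arrays 3 and 4 high in both groups, and the group means were 5.77 ± 1.27 (SD, n = 4) and 5.31 ± 1.73 (SD, n = 4). AT4G18180, a protein of the pectin lyase-like family, showed the same order, with 3.16 and 3.25 against 5.11 and 5.13 at normal CO2 and 3.01 and 2.94 against 4.11 and 5.23 at high CO2.

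The chromatin remodelling gene chr31 ran the other way in the groups. It read 1.47, 1.64, 1.22 and 1.17 at normal CO2 and 1.15, 1.19, 1.60 and 1.68 at high CO2, so that arrays 1 and 2 were high at normal CO2 and low at high CO2, and the group means of 1.37 ± 0.220 (SD, n = 4) and 1.41 ± 0.274 (SD, n = 4) came out close. MAMI (membrane-associated mannitol-induced) differed in spread: it stayed between 0.930 and 1.00 on the normal-CO2 arrays, while the high-CO2 arrays read 1.19, 0.747, 0.959 and 1.26. AT2G37510, an RNA-binding protein with an RRM domain, averaged 2.47 ± 0.370 (SD, n = 4) under normal CO2 and 2.64 ± 0.338 (SD, n = 4) under high CO2. For this gene, arrays 1 and 2 lay above arrays 3 and 4 in both groups.

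The brightest member with 1 gene name was AT2G33180, at 5.87 ± 0.352 (SD, n = 4) and 6.28 ± 1.41 (SD, n = 4). Its normal-CO2 arrays lay close together, while the high-CO2 arrays split into 7.15 and 7.79 (arrays 1 and 2) and 5.42 and 4.78 (arrays 3 and 4). The 10 named members not yet described or described next are AT3G26630, AT5G06790, AT4G13680, AT1G50390, AT3G19810, AT1G28150, AT4G27250, AT2G26110, AT1G11470 and AT4G31470. Over all 19 named members the coefficient of variation over the 8 arrays ran from 6.87% to 26.4% with a median of 15.9%, and 17 of the 19 kept within 2-fold from their lowest to their highest array.

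**Figure D2:**
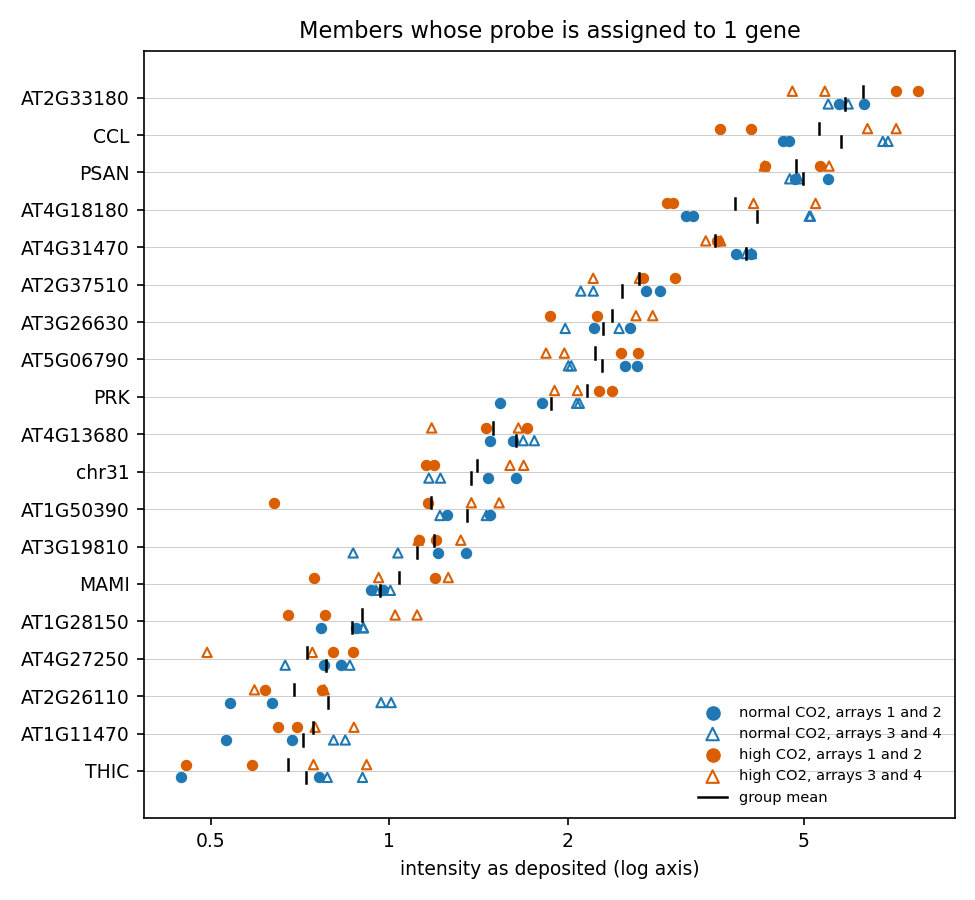
Intensity as deposited (horizontal, log axis) of the 19 members assigned to 1 gene, sorted by mean level, with 1 point an array (filled circles arrays 1 and 2, open triangles arrays 3 and 4) and a black tick at each group mean. CCL and AT4G18180 show arrays 1 and 2 below arrays 3 and 4 in both groups, chr31 shows opposite orders in the groups, and PSAN shows neither.

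A ratio of means near 1 says little about single arrays, so the range over all 8 arrays was taken for each member. The highest over the lowest array had a median of 1.54 and ran from 1.15 to 3.46. It stayed below 1.5-fold in 64 members (48.5%) and below 2-fold in 113 (85.6%), which leaves 19 members whose arrays differed by 2-fold or more. Among all 3439 probes 4.22% stayed below 1.5-fold and 18.7% below 2-fold, but the rule chose the members for a small part of this range. The coefficient of variation over the 8 arrays had a median of 13.9%, lay below 10% in 30 members and exceeded 20% in 28.

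The most even members were probes 133, 3203 and 3485, with coefficients of variation of 5.86%, 6.44% and 6.54%. Probe 133, assigned to no gene in the table used here, read 2.34, 2.26, 2.44 and 2.44 at normal CO2 and 2.45, 2.17, 2.16 and 2.14 at high CO2. Array 1 at high CO2 stood apart from the other high-CO2 arrays and lay at the level of normal CO2. Probe 3485, assigned to several genes, read 5.80, 5.98, 6.25 and 6.20 at normal CO2 and 6.47, 7.01, 6.64 and 6.83 at high CO2, without overlap.

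The least even members were probes 4594, 430 and 1292, with 31.4%, 31.2% and 31.2%. Probe 430, assigned to several genes, lay between 1.23 and 1.59 on the normal-CO2 arrays, while the high-CO2 arrays read 0.743 and 0.897 (arrays 1 and 2) and 1.94 and 1.93 (arrays 3 and 4). The high-CO2 arrays thus lay on either side of all normal-CO2 arrays, and their mean, 1.38, fell near the normal-CO2 mean of 1.41. Probe 4594, unnamed, had the same form, with 1.09, 0.631, 2.18 and 1.81 at high CO2 around 1.56 ± 0.125 (SD, n = 4) at normal CO2. Probe 1292, also unnamed, read 1.35, 1.83, 0.813 and 0.839 at normal CO2 and 0.955, 0.998, 1.51 and 1.59 at high CO2, with opposite orders of the array pairs as in chr31.

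**Figure D3:**
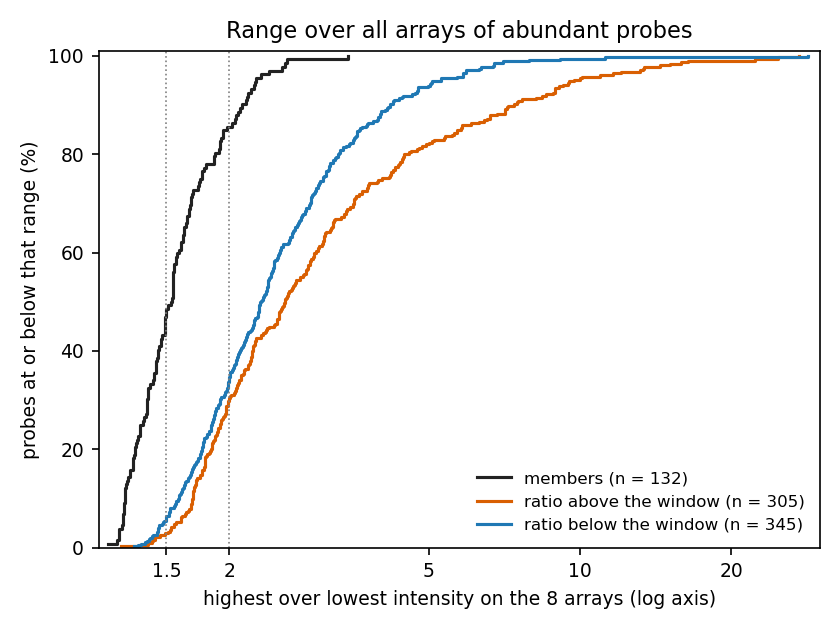
Share of probes (vertical, percent) whose highest over lowest intensity on the 8 arrays is at or below the value on the horizontal log axis, for the 132 members and the abundant probes above and below the ratio window. Dotted lines mark 1.5-fold and 2-fold, below which 48.5% and 85.6% of the members lie.

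Within a group, the members varied about as much as other abundant probes. The median coefficient of variation of a member was 10.8% over the normal-CO2 arrays and 14.7% over the high-CO2 arrays. It was 15.6% and 13.2% for abundant probes above the window, and 9.87% and 16.7% for those below it. In 79 of the 132 members (59.8%) the coefficient was larger at high CO2, against 67.3% of all probes. No test of these spreads was made, since probes of the same arrays are not replicates.

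Arrays 1 and 2 of a group tended to lie apart from arrays 3 and 4, a pairing that the labels do not name and that was known from earlier results. On quantile-normalized log2 values the pairs did not overlap in 90 of the 132 members (68.2%) at normal CO2, where 58.2% of 2904 probes above 0 on all arrays had this form, and in 76 members (57.6%) at high CO2, where 48.9% had it. In 56 members (42.4%, against 29.5% of the 2904 probes) the pairs lay apart in both groups, in the same direction in 29 and in opposite directions in 27. Over the 2904 probes the direction was the same in 492 and opposite in 364. Other abundant probes had pairs apart in both groups about as often, with 43.9% above the window and 38.6% below it. Their direction was the same in 76 and opposite in 58 above the window, and the same in 84 and opposite in 49 below it. The difference between pairs had a median size of 0.23 log2 units in members at normal CO2 and 0.23 at high CO2, larger than their median group difference of 0.13, which the rule keeps small. In 107 members the difference between pairs exceeded that between groups in at least 1 group, and in 69 it did so in both. Across the 132 members the pair differences of the groups had a Pearson correlation of 0.05, given as a description since the members share arrays. The part of this pairing in the members' steadiness was not tested.

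**Figure D4:**
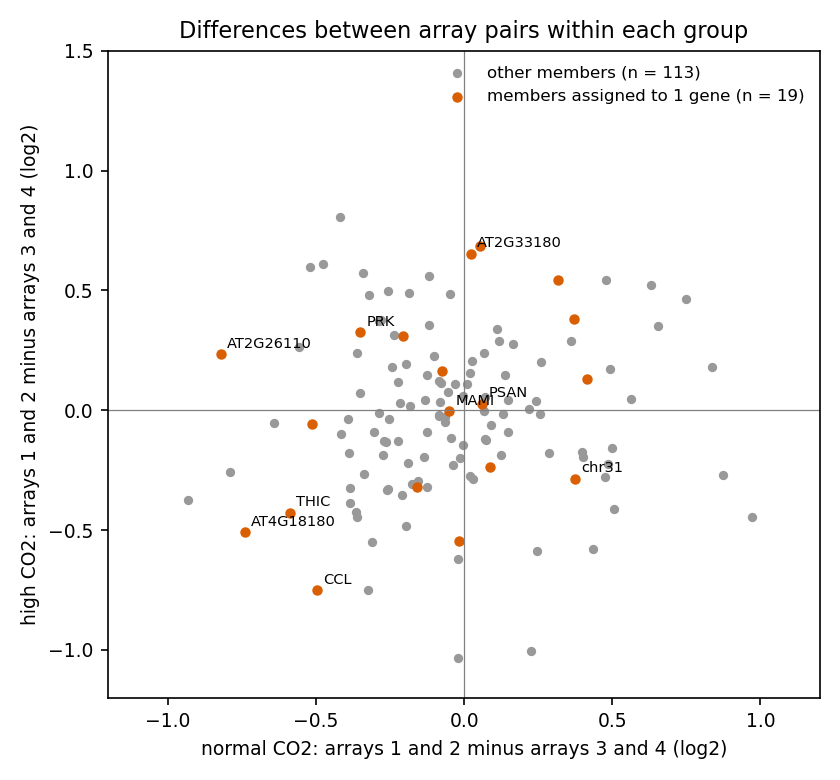
Mean log2 intensity (quantile-normalized) of arrays 1 and 2 minus that of arrays 3 and 4, at high CO2 (vertical) against normal CO2 (horizontal), 1 point a member. CCL, AT4G18180 and THIC lie at the lower left with the same order in both groups, chr31 and PRK in quadrants of opposite order, and PSAN and MAMI near 0.

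The order of the members by level was kept between the groups as well as within them. Spearman's rho between a high-CO2 and a normal-CO2 array was 0.907 to 0.943 over the 16 pairs of arrays, with a median of 0.924. Between arrays of a group it was 0.899 to 0.968 (median 0.903) at normal CO2 and 0.874 to 0.953 (median 0.896) at high CO2. For abundant probes above the window the median between groups was 0.695 and for those below it 0.777. The limits on the ratio hold the order of the members in place by themselves, and the wide range of levels raises every rho.

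The replicate spread leaves part of the members' steadiness loosely fixed. In the fit over the 3157 probes tested, the members' log2 changes (high over normal CO2, quantile-normalized) ran from -0.37 to 0.22 with standard errors of 0.089 to 0.28. Their median was -0.10, beside -0.14 over all probes tested, and on the deposited scale 65 members had a ratio above 1 and 67 below it. The 95% interval lay within 1.5-fold either way in 104 members (78.8%), against 8.17% of the probes tested. It did so in 11.5% of the abundant probes above the window and 3.77% of those below it. The rule holds the members' ratios inside that range, so that this contrast supports nothing. The median standard error was 0.150 in members and 0.265 over all probes tested. In the other 28 members the interval reached 1.5-fold on some side, so that a change of that size was not outside the error of 4 arrays against 4. For THIC it ran from -0.60 to 0.45 and for CCL from -0.76 to 0.17, while for PSAN it ran from -0.45 to 0.05. These intervals treat the 4 arrays of a group as independent. With the array pairs as a random block, 86 members had an interval within 1.5-fold either way.

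The fit called 7 members (5.30%), all lower at high CO2, where 23.7% of all probes tested were called lower and 19.4% higher. Their log2 changes ran from -0.37 to -0.29, with adjusted p between 0.0088 and 0.041 (limma). The rule used this contrast, and nothing is read from the count. The calls also depended on the scale: on the values as deposited, on which the members were chosen, 0 members were called (limma, lowest adjusted p = 0.14, and 0 at an unadjusted p under 0.05), and 0 were called with equal medians or equal sums per array. Without normal-CO2 array 1, 2 or 3 it called 4 members, and without normal-CO2 array 4 it called 3. The strongest was AT4G31470, which read 3.84, 4.08, 4.00 and 4.08 at normal CO2 and 3.58, 3.57, 3.42 and 3.62 at high CO2. Its groups did not overlap and each was tight, at 4.00 ± 0.113 (SD, n = 4) and 3.55 ± 0.0900 (SD, n = 4). Its log2 change of -0.37 (SE 0.096; limma, adjusted p = 0.0088) was -0.17 on the values as deposited (limma, adjusted p = 0.14). The next by log2 change was probe 1823, unnamed, at 3.70 ± 0.354 (SD, n = 4) and 3.35 ± 0.371 (SD, n = 4), whose groups overlapped (log2 change -0.33, limma, adjusted p = 0.026). Its call was lost without normal-CO2 array 1 (limma, adjusted p = 0.073), without high-CO2 array 1 (0.059) and without high-CO2 array 3 (0.064). It was also lost with the array pairs as a random block (limma, adjusted p = 0.071), without the intensity trend (0.088), with the median change set to 0 (0.18) and under each other scaling (0.21 to 0.33).

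Groups without overlap on the deposited values were found in 4 members, 3 higher at high CO2 and 1 lower, where 41.7% of the probes tested had such groups (19% higher and 22.8% lower). The 3 higher ones were probes 3203, 3485 and 1161, and the lower one was AT4G31470. Probe 1161, assigned to several genes, went from 0.767 ± 0.0266 (SD, n = 4) to 0.865 ± 0.0979 (SD, n = 4). After quantile normalization the fit called AT4G31470 alone among these 4. The log2 change was -0.01 for probe 3485 (limma, adjusted p = 0.97), 0.13 for probe 3203 (limma, adjusted p = 0.26) and 0.17 for probe 1161 (limma, adjusted p = 0.31).

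At the limits of the rule the values were continuous. At the lower ratio, AT1G50390 stood just inside at 0.871, with 1.25, 1.48, 1.22 and 1.46 at normal CO2 and 1.16, 0.638, 1.53 and 1.37 at high CO2, and a probe assigned to no gene in the table used here stood just outside at 0.867. At the upper ratio PRK was just inside and AT4G16410 just outside at 1.151. At the lower limit of level, the means were 0.682 inside and 0.678 outside. At the ceiling, 1 probe was left out that otherwise met the rule: it stood at 100 on 7 arrays and at 81.3 on high-CO2 array 4, so that its true ratio has no value. A further 399 probes lay within the ratio window at a lower level.

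Membership was recomputed with other scalings and with each array left out. Between 128 and 144 probes met the rule when 1 of the 8 arrays was left out, and 72 of the 132 members met it each time. With quantile-normalized values 122 probes met it, 99 of them members. With group medians in place of means 138 did, 117 of them members. Across these alternatives and those with equal medians, equal sums, geometric means or the median change set to 0, 48 members remained, 8 of them with 1 gene name: PSAN, AT5G06790, AT2G37510, AT3G19810, AT3G26630, AT1G28150, AT1G11470 and chr31. PRK, CCL, THIC, MAMI and AT4G18180 left the window in at least 1 of them.

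**Figure D5:**
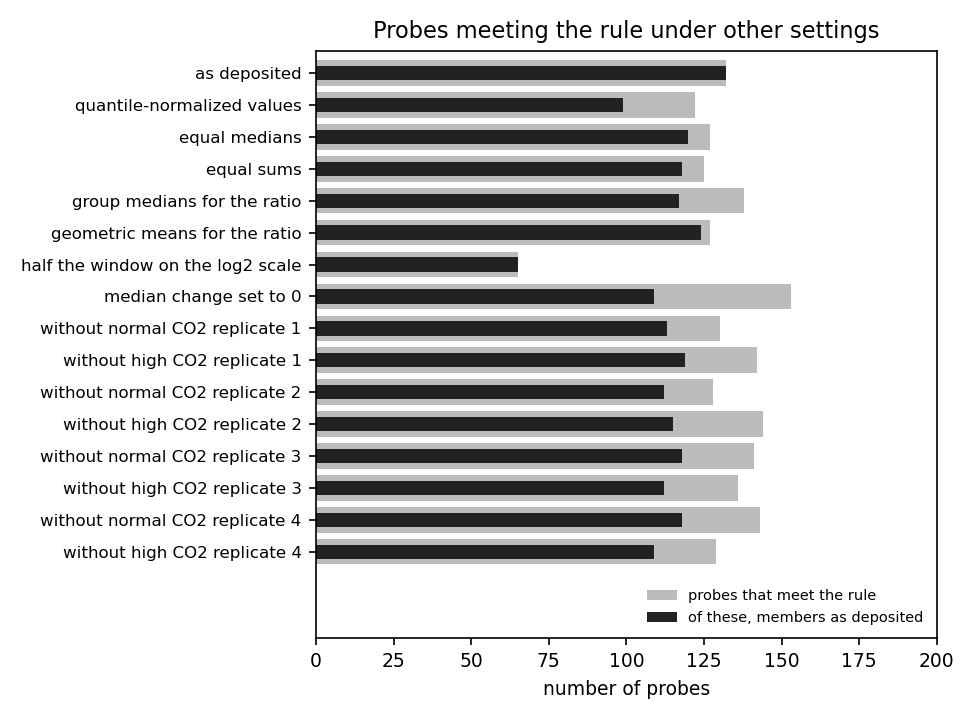
Number of probes that meet the rule (grey bars, horizontal axis) under each setting on the vertical axis, and how many of them are among the 132 members as deposited (black bars). Leaving out 1 array keeps the number between 128 and 144, while a window 0.5 times as wide on the log2 scale leaves 65.

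The share of members among the probes at a fixed distance in probe number depended on that distance. Of the measured probes 12 numbers away from a member, 22 of 226 (9.73%) were members too, against 56 of 1109 (5.05%) around other abundant probes and 3.99% around all probes. At a distance of 6 it was 20 of 220 (9.09%), against 5.57% and 3.90%, and at a distance of 1 it was 4 of 179 (2.23%), against 4.85% and 3.50%. A higher share was not limited to near numbers, and it was not found at every distance. At a distance of 24 it was 20 of 226 (8.85%, against 4.66% and 4.07%). At 288 it was 22 of 206 (10.7%, against 4.61% and 3.89%), the highest share among the 8 distances taken. The largest distance gave 10 of 186 (5.38%, against 4.25% and 3.80%). A distance of 2 gave 12 of 195 (6.15%, against 5.71% and 3.89%), and a distance of 3 gave 4 of 197 (2.03%, against 5.84% and 3.96%). In these counts a pair of members is counted from both of its ends. At a step of 6 numbers the members formed 9 runs of at least 2 probes. The longest, chosen after its values were seen, was 3179, 3185 and 3191, followed after a number that is not in the table by 3203 and 3209. These 5 members had means of 3.88, 11.0, 3.77, 9.81 and 9.23, and the next probe in that step, 3215 (AT4G31530), had a mean of 62.1, with a ratio of 1.25 above the window. Before and after this stretch the means at the same step were 0.0544 (probe 3173) and 0.262 (probe 3227). The named probes of the stretch, AT4G31470 and AT4G31530, are close in locus number on chromosome 4. The positions of the probes on the array are not given in the sources used here, and the part of position in these levels was not tested.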

How the data were processed

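Total RNA of 4 normal-CO2 and 4 high-CO2 samples was measured on expression arrays, 1 per sample, with groups and replicate numbers from the titles. The authors deposited 1 table of linear intensity values, and its scaling, background treatment, platform make and scanner are not given in the sources used here. Per the deposited values, none is negative, some are 0 and none exceeds 100. The members were selected on these values. Probes were named through GEO's platform annotation (692 with 1 gene, 690 matched to RefSeq's TAIR10.1 table by gene identifier).

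For the fit, 0 was treated as missing, log2 values were quantile-normalized, and the 3157 probes with no more than 1 missing array per group (282 were left out) were tested with limma 3.58.1 (R 4.3.3; lmFit, eBayes with intensity trend, no block, two-sided) and Benjamini-Hochberg adjustment over all of them at 0.05. The fit was tested on simulated data with known changes in 200 of 3157 probes (5 runs). It recovered 52.9% of the 2-fold and 82.4% of the 4-fold changes, and 4.62% of its calls were false. A probe that missed the threshold may therefore still differ between the groups. In the data 43.2% of the probes were called, so that far more probes differed than in the simulation. The simulated noise was independent between arrays, without the array pairs, and was not normalized again. Its shares of recovered and of false calls therefore need not hold for the data or for the members. Summaries were computed in Python 3.11.15. The number of arrays limits the precision, and no depth applies.

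The members, the gene families and the alternatives were chosen with earlier results of these data known. Named were the 3 brightest, 3 most and 3 least even members, those at the limits of the rule, the 2 lowest called members (none was called higher) and genes of 8 families listed by symbol. All members with 1 gene, and probes 3179, 3209, 3215, 3173, 3227 and 1161, were added after the values were seen. Same-numbered arrays of the groups had correlations of deviations between 0.0031 and 0.099. These values are low but cannot exclude a pairing by replicate number, and the main fit used no block. No probe, promoter or protein sequence was used here.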

Additional observations from a re-analysis of the deposited data

Results flagged for a closer look

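In 85 checks of groups of 4 arrays, an array stood far from the other 3 by Dixon's criterion in 4, where chance gives about 1 in 20. Among the members this was probe 133, the most even of them, which read 2.45 on high-CO2 array 1 against 2.14 to 2.17 on the others. Its log2 change was -0.28 (limma, adjusted p = 0.063) and -0.34 without that array (limma, adjusted p = 0.028). The array was picked by its value, so that the second p supports nothing. The probe left out at the ceiling read 81.3 on high-CO2 array 4 and 100 on the other 3. With those 3 values at the ceiling any lower value meets the criterion, so that this one of the 4 says nothing. PSB27 read 3.71 on normal-CO2 array 1 against 4.47 to 4.57, and PSBW 34.1 on normal-CO2 array 2 against 18.6 to 19.8. No cause was tested.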

How the results depend on the processing

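The 7 calls among members were the least stable result. They were 0 with no scaling, equal medians or equal sums, 1 without the intensity trend and 1 with the array pairs as a random block (correlation 0.33). The exact permutation test gave 0, with 11 members at an unadjusted p under 0.05, but it says nothing about stability. Its smallest p with 70 assignments, 0.0286, came to an adjusted p of 0.067 at the lowest. With the median change of all probes set to 0, an alternative added after seeing the data, 2 were called, both higher and neither among the 7. Leaving out 1 array gave 3 to 9. With the replicate block 7 passed, 5 of them the same, and the other alternatives gave 7 or 8. The members' median log2 change, -0.096, was -0.011 with no scaling, -0.037 with equal medians, -0.049 with equal sums and 0.049 with the median change set to 0, and -0.12 to -0.084 with 1 array left out. Where it was not centred, the median of all probes ran from -0.16 to -0.027. The number of members with an interval within 1.5-fold was 104, 77 to 110 under the alternatives and 89 to 96 with 1 array left out. The number meeting the rule was 65 with a window 0.5 times as wide and 122 to 153 under the other alternatives. The median SD within a group was 0.169 at normal CO2 (0.159 with no scaling, 0.180 with equal medians, 0.157 to 0.169 without an array) and 0.193 at high CO2 (0.213, 0.208, and 0.174 to 0.189). Among those of the 36 named probes that the fit called, no direction reversed. Over all refits of the 36, a call was lost in 24 cases and gained in 13. A probe without a call shifted by its SD within a group or more in 11, and 635 cases stayed the same. Some probes without a call changed sign, such as AT2G33180 (-0.092, but 0.071 with no scaling). The causes of these shifts were not tested. The files hold no background signal, so that limits of detection were not assessed.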
